A study of Mus musculus with 2 samples.

Results

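The genes described here are the carriers that move amino acids, small peptides and organic ions across cell membranes, measured in cultured osteoblasts. They were chosen by name: every gene whose current symbol belongs to the solute carrier families Slc1, Slc3, Slc6, Slc7, Slc15, Slc17, Slc22, Slc36, Slc38, Slc43 or Slco and that a probe set names alone. The rule found 80 genes with 123 probe sets among 12393 measured genes, and no Slc36 gene was among them. The cells came from the skull vault (calvaria) of C57Bl/6 mice 4 to 5 days old. One array held RNA of osteoblasts from mice with a Dlk1 transgene (Col1-Dlk1), enriched for Dlk1-positive cells by sorting, and the other held RNA of wild-type osteoblasts. They are called the Dlk1-labelled and the WT-labelled array below. Each array pooled 3 cultures of its genotype, so there was 1 array per genotype and no replicate. The sources used here name neither the promoter meant by Col1 nor whether the wild-type cells were sorted.

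Amino acid carriers set how much of each amino acid a cell can take up, exchange or recover from its lysosomes. Collagen-producing osteoblasts draw heavily on glutamine, proline, glycine and serine for matrix synthesis. Some carriers work alone, such as the sodium-coupled Slc1, Slc6 and Slc38 proteins. Others are pairs, in which a heavy chain of the Slc3 family brings a light chain of the Slc7 family to the cell surface. The Slc22 and Slco families move organic cations and anions, including carnitine, prostaglandins, drugs and bile acids, and many of their members are known from liver and kidney.

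Values are linear probe-set intensities in arbitrary units. Probe sets of 1 gene were averaged as log2(intensity + 10.96), and gene intensities below are that average brought back to linear units. Each difference is the value of the Dlk1-labelled array minus that of the WT-labelled array on the same log2 scale, which understates the change of dim genes. A gene reached the level threshold when its higher value was at least 42.8, the median of all values, and was well above it at 171, which is 4 times the median. It was counted as higher or lower when it reached the level threshold and differed by at least 2-fold. These are rules of size that compare a pair of arrays, with no test and no p-value, and the number of arrays limits the precision. Intensities of different probe sets depend on the probes, so no order between genes is read from them.

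Dlk1 itself read 26.5 on the Dlk1-labelled array and 306 on the WT-labelled array, against its label. Whether the 2 arrays are exchanged, or whether this probe set reads the transgene, was not tested. Each direction below is between arrays as labelled and would turn around if they were exchanged. All 15 measured macrophage markers were higher on the Dlk1-labelled array. They ranged there from 136 to 7267, with a summed intensity of 22145, against 1.16 to 43.3 and a sum of 215 on the other array, and no marker was at 0. Of 7 measured osteoblast markers, Col1a1, Col1a2 and Sparc were within 2-fold, between 1462 and 7535 on both arrays, and Postn was lower, at 609 against 4232. Sp7, Alpl and Ibsp, which mark committed and mineralising osteoblasts, did not reach the level threshold on either array. None of the 5 endothelial, 4 epithelial or 2 erythroid markers measured reached the threshold, and 1 of 4 neuron and glia markers (Tubb3) and 1 of 4 muscle markers (Acta1) did, both within 2-fold.

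Most of the 80 transporter genes were dim. The level threshold was reached by 23 of them (28.75%), while 54.8% of all genes reached it. Only 6 were well above it (7.50%), against 24.0% of all genes: Slc3a2, Slc6a8, Slc7a5, Slc7a6, Slc38a2 and Slc38a10. Slc3a2, Slc6a8 and Slc38a2 passed this rule on both arrays, while Slc7a5, Slc7a6 and Slc38a10 passed it on 1 array alone, and at 8 times the median the count was 2. Nearest to this threshold were Slc38a10, inside it at 205, and Slc15a3, outside it at 171, which rounds to the threshold but lies under it. At the lower threshold, Slc43a3 at 54.9 lay just inside and Slc22a5 at 37.4 just outside. The other 57 genes had a median of 10.03 on their higher array, and 30 genes read below the pseudocount on both arrays.

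The families differed in how many members reached the threshold. In the families of amino acid and peptide carriers (Slc1, Slc3, Slc6, Slc7, Slc15, Slc38 and Slc43), 19 of 46 genes (41.3%) did so, and they include all 6 genes that were well above it. In the organic ion families (Slc17, Slc22 and Slco) the count was 4 of 34 (11.8%), with none well above. By family, the counts were 4 of 6 for Slc1, 1 of 2 for Slc3, 4 of 13 for Slc6, 4 of 13 for Slc7, 2 of 5 for Slc15 and 3 of 6 for Slc38. They were 2 of 18 for Slc22, 2 of 11 for Slco, 0 of 5 for Slc17 and 1 of 1 for Slc43.

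**Figure D1:**
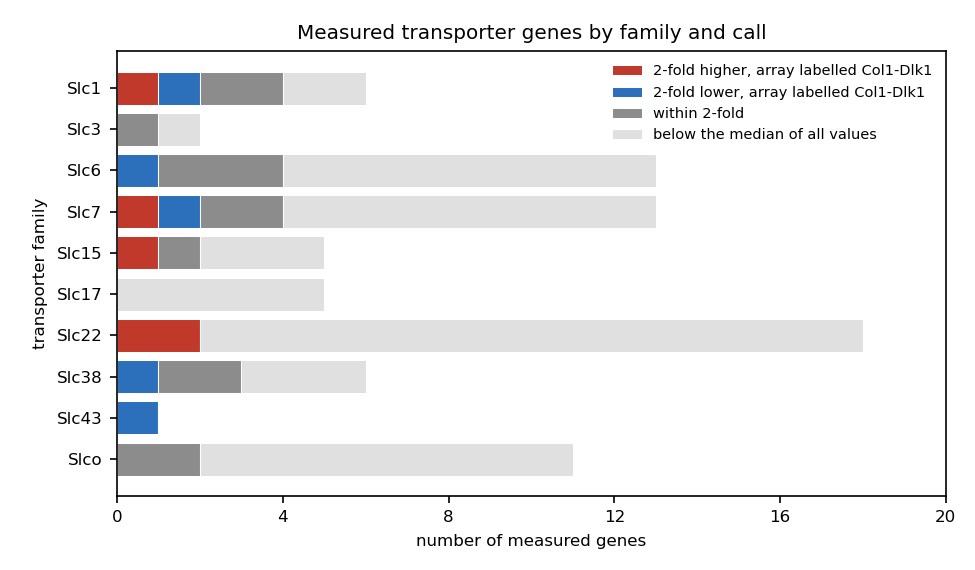
Number of measured genes in each transporter family (horizontal axis), split into those at least 2-fold higher or lower on the Dlk1-labelled array, those within 2-fold and those under the level threshold. The Slc22 bar is the longest, with 16 of its 18 genes below the threshold, and no Slc17 gene reached it.

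Between the arrays, 5 transporter genes were higher on the Dlk1-labelled array (Slc1a6, Slc7a7, Slc15a3, Slc22a17 and Slc22a23), 5 were lower (Slc1a3, Slc6a17, Slc7a6, Slc38a2 and Slc43a3), and 13 were within 2-fold. Among all 6795 genes that reached the level threshold, 9.39% were higher and 7.11% were lower, 16.5% in all, against 10 of 23 (43.5%) here. A gene that reaches the threshold on 1 array alone tends to differ by construction. This held for 9 of the 23, 5 on the Dlk1-labelled and 4 on the WT-labelled array. Among all 6795 genes the counts were 744 and 569, a smaller share. Of the 14 that reached it on both arrays, 3 differed by 2-fold (Slc1a6, Slc7a6 and Slc38a2), beside 9.30% of all genes held to the same rule. With the pseudocount raised to the median of all values, 2 higher genes (Slc15a3 and Slc22a23) and 2 lower genes (Slc1a3 and Slc7a6) still passed the rule. The median difference of the 23 genes was -0.09 and that of all level-passing genes 0.02. Their median absolute difference was 0.88 against 0.42 for all level-passing genes, and it includes the genes that reached the threshold on 1 array alone. In pooled RNA, a lower value can mean fewer cells of a type or less RNA per cell, and these cannot be told apart here.

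**Figure D2:**
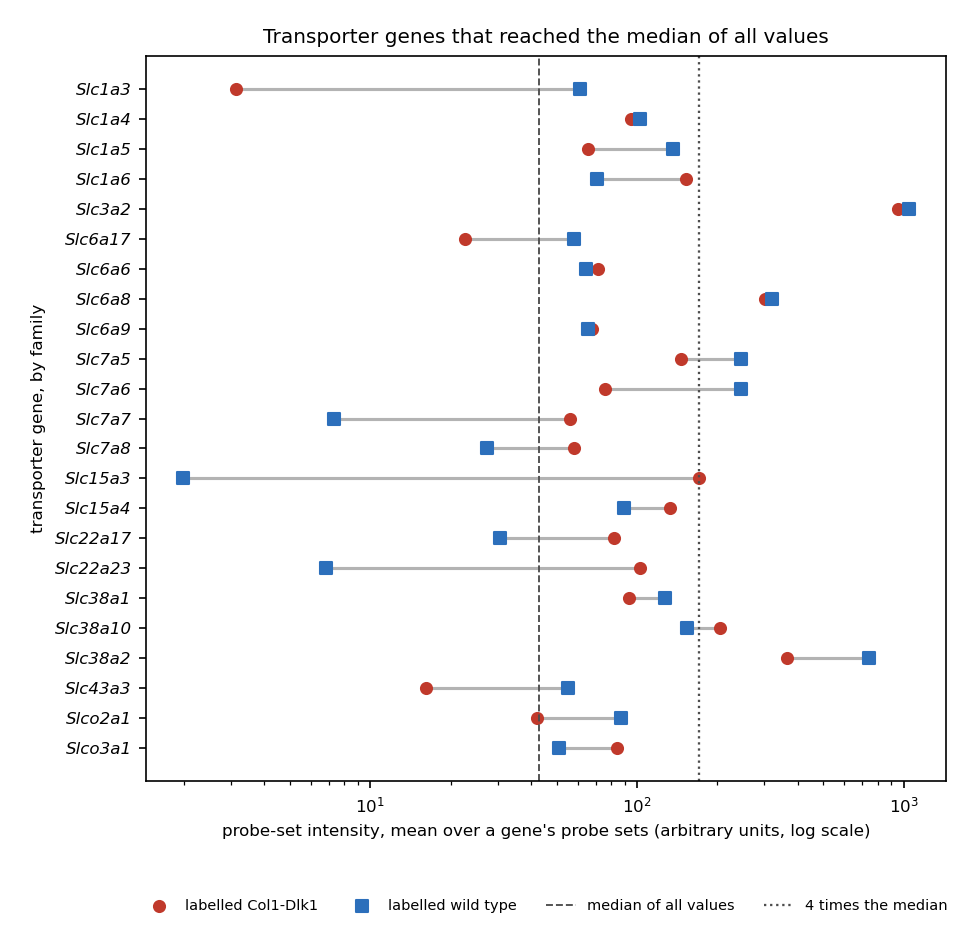
Intensity (log scale, arbitrary units) of the 23 transporter genes that reached the level threshold, with 1 point per array and genes ordered by family. Slc15a3, Slc22a23 and Slc1a3 show the longest lines between the arrays, and Slc3a2, Slc6a8, Slc6a9 and Slc1a4 nearly coincide.

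The paired carriers of the Slc3 and Slc7 families went in both directions around a common partner. Slc3a2 (CD98) is the heavy chain that carries several light chains to the plasma membrane. Its 1 probe set read 952 on the Dlk1-labelled array and 1051 on the WT-labelled array, a difference of -0.14. Slc7a6 is a light chain that exchanges cationic for neutral amino acids (y+L transport). Its 2 probe sets read 67.1 and 85.3 on the Dlk1-labelled array against 215 and 282 on the WT-labelled array, and both were lower, with a mean difference of -1.57. Slc7a7, the other y+L light chain, known from kidney, gut and macrophages, lay the other way, at 56.0 against 7.33 (1.87). Its value on the WT-labelled array is below the pseudocount, and it rests on 1 probe set.

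The large neutral amino acid light chains showed smaller differences. Slc7a5, the main importer of leucine and other essential amino acids in growing cells, read 147 against 245 (-0.70). Slc7a8, a related exchanger of neutral amino acids, read 58.1 against 27.5 (0.85). Neither reached 2-fold, and the plain ratio of Slc7a8 was 2.12 without the pseudocount. The remaining 9 Slc7 genes did not reach the level threshold. Among them were Slc7a11, the light chain of the cystine-glutamate exchanger, at 12.6 against 7.03, and the cationic amino acid carriers Slc7a1 (3.87 against 19.2), Slc7a2 (12.6 against 16.97) and Slc7a3 (25.5 against 14.1). The kidney pair of Slc3a1 and Slc7a9, which recovers cystine, was also below it, at 16.2 against 8.57 and 16.5 against 22.4.

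Slc38a2, Slc1a5 and Slc38a1, carriers that move glutamine among other neutral amino acids, each had a lower value on the Dlk1-labelled array. They are not all the carriers of such amino acids, and Slc7a8 (0.85) and Slc38a10 (0.39) lay the other way. Slc38a2, a carrier whose gene is known to respond to amino acid supply, read 365 against 742, a difference of -1.0003 that lies on the 2-fold line and ranged from -1.06 to -0.94 over the alternative settings. Slc1a5, a neutral amino acid exchanger best known for glutamine, read 65.4 against 136 (-0.95), just short of that line. Slc38a1 read 93.2 against 128 (-0.41). All 3 rest on 1 probe set each. Slc1a4, which exchanges alanine, serine and cysteine, read 94.7 against 102 (-0.10), and its 3 probe sets gave -0.43, -0.22 and 0.35.

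Slc38a10 read 205 against 154 (0.39). It has 7 probe sets, the most of any transporter gene here, with differences from -0.07 to 0.72, 6 of them above 0. Their intensities on the Dlk1-labelled array ran from 18.3 to 1133, which shows how far probe sets of the same gene can differ in brightness while their differences stay within 2-fold. Slc38a3, Slc38a4 and Slc38a5 were below the level threshold, with gene averages of at most 13.4.

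The high-affinity glutamate carriers split. Slc1a3, which takes glutamate and aspartate into astrocytes and other cells, read 1.50, 1.43 and 7.17 over its 3 probe sets on the Dlk1-labelled array against 64.2, 44.8 and 78.4 on the WT-labelled array. The mean difference was -2.35, the most negative of the 23 genes. All 3 probe sets read below the pseudocount on the Dlk1-labelled array, so the size of the difference depends on that choice. The gene reached the level threshold on the WT-labelled array alone. Slc1a6, known from Purkinje cells of the cerebellum, read 153 against 70.6 (1.01) with 1 probe set, and it fell short of 2-fold under median centring, quantile and loess scaling. Slc1a1 and Slc1a2, the other 2 measured glutamate carriers, were at or below 9.46 as genes on both arrays.

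Among the Slc6 carriers, the 3 that serve osmolytes, energy and glycine had gene averages that were close between the arrays. Slc6a8, the creatine carrier, read 302 against 322 (-0.09), with -0.05 and -0.13 for its 2 probe sets. Slc6a6, the taurine carrier, read 71.6 against 64.6 (0.13), but its 3 probe sets gave 0.60, 0.41 and -0.63, so they do not settle a direction. Slc6a9, a glycine carrier, read 67.9 against 65.5 (0.04). Slc6a17, a vesicular carrier of neutral amino acids known from neurons, was lower at 22.6 against 57.8 (-1.03). The carriers of noradrenaline (Slc6a2), dopamine (Slc6a3) and serotonin (Slc6a4), and the other 6 Slc6 genes, were below the level threshold, with gene averages of at most 19.7.

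The Slc15 peptide carriers of the endolysosome both had higher values on the Dlk1-labelled array. Slc15a3, which exports histidine and small peptides from the lysosome and is known from macrophages and dendritic cells, read 171 against 1.98, a difference of 3.81 and the most positive of the 23 genes. Its value on the WT-labelled array is far below the pseudocount, so the fold of 14.1 depends on that choice. Slc15a4, its relative in the same compartment, read 133 against 89.3 (0.52), within 2-fold. The plasma membrane peptide carriers Slc15a1 and Slc15a2, and Slc15a5, had gene averages of at most 12.8. The 15 macrophage markers were higher on this array too, with a median difference of 5.57. Any transporter gene counted as higher shares that direction by the rule. The part of these markers in the results for Slc15a3, Slc7a7 and the other 3 higher genes was not tested.

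**Figure D3:**
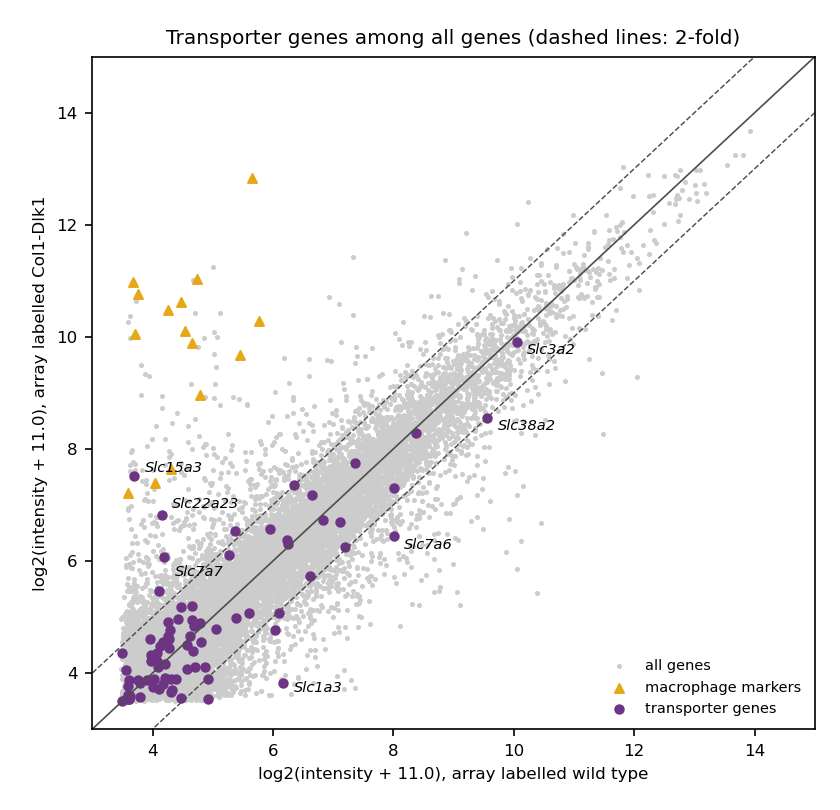
Gene values on the WT-labelled array (horizontal) and on the Dlk1-labelled array (vertical), both as log2(intensity + 10.96), for all genes (grey), the 80 transporter genes (purple) and 15 macrophage markers (triangles). Most transporter genes lie in the dim corner, Slc15a3, Slc22a23 and Slc7a7 lie above the upper 2-fold line, and Slc1a3 and Slc7a6 lie below the lower line.

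Of the 18 organic ion carriers of the Slc22 family, 2 reached the level threshold, and both were higher on the Dlk1-labelled array. Slc22a23, for which no substrate is well established, read 103 against 6.81 (2.68). Slc22a17, a receptor for the iron-binding protein lipocalin, read 81.9 against 30.5 (1.16). Each rests on 1 probe set, and neither value on the WT-labelled array reached 42.8. Slc22a5, the carnitine carrier, fell short as a gene at 22.8 against 37.4, although 1 of its 2 probe sets read 79.0 against 59.0 and the other 1.72 against 22.4. The imprinted Slc22a18 had a similar split, with 45.9 against 19.2 on 1 probe set and 6.70 against 46.8 on the other, so that its probe sets oppose each other by 0.92 and -1.71. The kidney anion carriers Slc22a6 and Slc22a8 and the urate carrier Slc22a12 did not exceed 14.2 as genes.

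Of the 11 Slco carriers, 2 reached the threshold, and neither reached 2-fold. Slco2a1, which takes prostaglandins into cells for breakdown, read 42.3 against 87.1 (-0.88). Its 3 probe sets were 98.0 against 356, 28.3 against 58.5 and 24.3 against 26.05, with differences of -1.75, -0.82 and -0.07, and by the brightest alone it would count as lower. Slco3a1, another carrier of prostaglandins and other organic anions, read 84.4 against 51.2 (0.62), with 3 probe sets between 0.53 and 0.75. The liver carriers Slco1a1, Slco1a4 and Slco1b2 had gene averages of at most 10.7.

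Slc43a3, a purine nucleobase carrier and the 1 measured Slc43 gene, was lower at 16.1 against 54.9 (-1.28). None of the 5 Slc17 genes, which include phosphate, urate and vesicular glutamate and nucleotide carriers, reached the threshold. The vesicular nucleotide carrier Slc17a9 read 33.0 against 6.23 (1.35). It was the 1 gene below the level threshold that was at least 2-fold higher, and Slc7a1 (-1.02) and Slco5a1 (-1.39) were the 2 that were at least 2-fold lower.

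**Figure D4:**
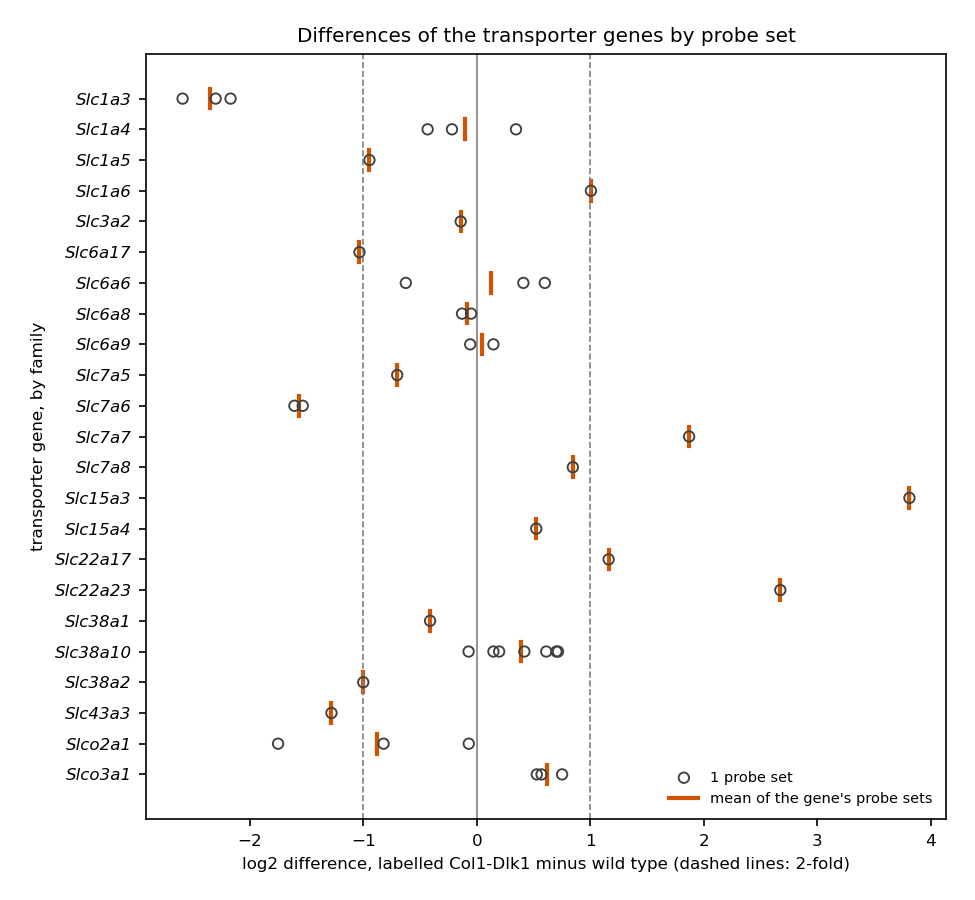
Log2 difference (Dlk1-labelled minus WT-labelled array) of each probe set (circles) and the mean per gene (bars) for the 23 transporter genes at or above the level threshold. The 3 circles of Slc1a3 and the 2 of Slc7a6 lie beyond the 2-fold line together, while those of Slc6a6 lie on both sides of 0 and those of Slco2a1 spread from -1.75 to -0.07.

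Probe sets gave the only repeat measurement, on the same RNA. The standard deviation of differences among probe sets of a gene was 0.42 log2 units over the 9 level-passing transporter genes with several probe sets, and 0.47 over 3230 such genes in all. All probe sets had the same sign in 5 of these 9 genes (55.6%) and in 64.3% of all such genes. Of the 10 genes that differed by 2-fold, 8 rest on 1 probe set, and Slc1a3 and Slc7a6 are the 2 with several. In 6 genes the probe sets differed by at least 1.5-fold in both directions (Slc6a6, Slc7a2, Slc7a4, Slc15a2, Slc22a6 and Slc22a18), 5 of which were below the level threshold.

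Promoter windows of 300 bases (250 before and 50 after a RefSeq start site, build GRCm38.p6) were held for 59 of the 80 genes, 15 of them among the 23. They were searched on both strands for TGATGNAA, the core of the element through which amino acid shortage acts on many genes, and for TGACNNNGC, the core of the antioxidant response element. TGATGNAA was found in 7 of 82 transporter promoters (8.54%) and in 3.97% of all 32851 promoters, and TGACNNNGC in 9 of 82 (10.98%) and in 12.4% of all. Among the 15 genes, TGATGNAA matched in Slc1a4, Slc7a7 and Slco2a1, and TGACNNNGC in Slc6a9, Slc7a6 and Slc38a2. Windows of neighbouring start sites can overlap, and 1 site each of Slc7a7 and Slc7a6 was counted in 2 promoters. Counted by gene, TGATGNAA matched in 6 of the 59 transporter genes (10.2%) and TGACNNNGC in 7 (11.9%). Each motif matched in 20% of the 15. The shares of all genes with a window were 4.51% for TGATGNAA and 13.99% for TGACNNNGC. A match is a description of letters, and these arrays do not measure binding. Stretches upstream of the start site are shown for 1 gene that was higher, 1 that was lower and 1 within 2-fold, with the matched bases in capitals. They are Slc7a7 (chr14:54418048-54418115, minus strand), Slc38a2 (chr15:96699729-96699785, minus strand) and Slco2a1 (chr9:103008409-103008476, plus strand, matched on the opposite strand), each written 5′ to 3′ along its gene.
Slc7a7: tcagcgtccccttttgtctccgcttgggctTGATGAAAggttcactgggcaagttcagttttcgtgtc
Slc38a2: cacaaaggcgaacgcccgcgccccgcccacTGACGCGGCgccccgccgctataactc
Slco2a1: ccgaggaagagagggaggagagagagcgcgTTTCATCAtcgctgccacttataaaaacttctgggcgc

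Beyond the carriers, 6 lists covered amino acid response, enzymes and sensing, and glutathione and NRF2 genes. Not all of these genes use or sense amino acids. Among their 65 level-passing genes, 7 were higher and 4 lower (16.9%, against 16.5% of all level-passing genes). In the amino acid response list, the median was 0.38, and 1 of 14 level-passing genes was higher and none lower. Atf3, a stress-induced transcription factor gene, read 195 against 72.0 (1.32), while Atf5 (0.92), Nupr1 (0.92) and Ddit4 (0.86) were within 2-fold. Atf4, the central factor of that response, read 128 against 199 (-0.59), and Asns, asparagine synthetase, 575 against 738 (-0.36). These are 2 of the 5 level-passing genes of the list with differences below 0. The other 9 lay above 0, Ddit3 (0.71) and Sesn2 (0.52) among them.

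The list of serine and glycine synthesis also holds folate enzyme genes (Mthfd1 and Mthfd2) and a glycine cleavage gene (Gcsh). Its 8 level-passing genes all had differences below 0, Mthfd1 at -0.32 and Gcsh at -0.59 among them, and their median was -0.64. Of all 6795 level-passing genes, 3314 had differences below 0. Psat1, a serine synthesis enzyme, read 223 against 656 (-1.51) and Shmt1, which converts serine to glycine in the cytosol, 20.1 against 56.2 (-1.11). These 2 of the 8 were lower, beside 7.11% of all level-passing genes, whereas the mitochondrial enzymes Mthfd2 (-0.83) and Shmt2 (-0.69) were within 2-fold. Phgdh, the first enzyme of serine synthesis, read 549 against 586 (-0.09), and Psph read 296 against 301 (-0.03), so both were nearly level.

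Of all level-passing genes, 9.39% were higher and 7.11% were lower. The median was 0.17 for glutamine, glutamate and proline enzymes, of which 1 of 6 was higher and none lower. Glul, glutamine synthetase, read 139 against 60.3 (1.07), and Got1 (0.27), Oat (0.19) and Aldh18a1 (-0.17) were within 2-fold. Of 9 branched-chain and arginine enzymes, 2 were higher and 1 was lower, and the median was -0.16. The cytosolic transaminase gene Bcat1 read 80.0 against 185 (-1.11) and the mitochondrial Bcat2 63.8 against 16.4 (1.45), and Bckdha, a subunit of the next enzyme, was higher (1.13). Asl, of the urea cycle, differed by -0.33.

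Of 14 level-passing glutathione and NRF2 genes, 3 were higher and 1 was lower, beside 9.39% and 7.11% of all level-passing genes. Their median was -0.01. Hmox1, a haem-degrading enzyme also known from macrophages, read 1980.1 against 535 (1.87), Gss, glutathione synthetase, 183 against 65.8 (1.34) and the quinone reductase gene Nqo1 300.5 against 123 (1.21). Gsta4, a glutathione transferase gene, read 46.9 against 1055.0 (-4.20). None of the 14 level-passing genes of amino acid sensing by mTORC1 reached 2-fold, and their median was 0.39. The largest differences were those of Sesn1, a stress-induced regulator of this pathway (0.94), Lamtor4, a subunit of the lysosomal Ragulator complex (0.67), Nprl3 (0.65) and Lamtor2 (0.62). The part of the macrophage markers, which lay in the direction of Hmox1, in these lists was not tested.

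**Figure D5:**
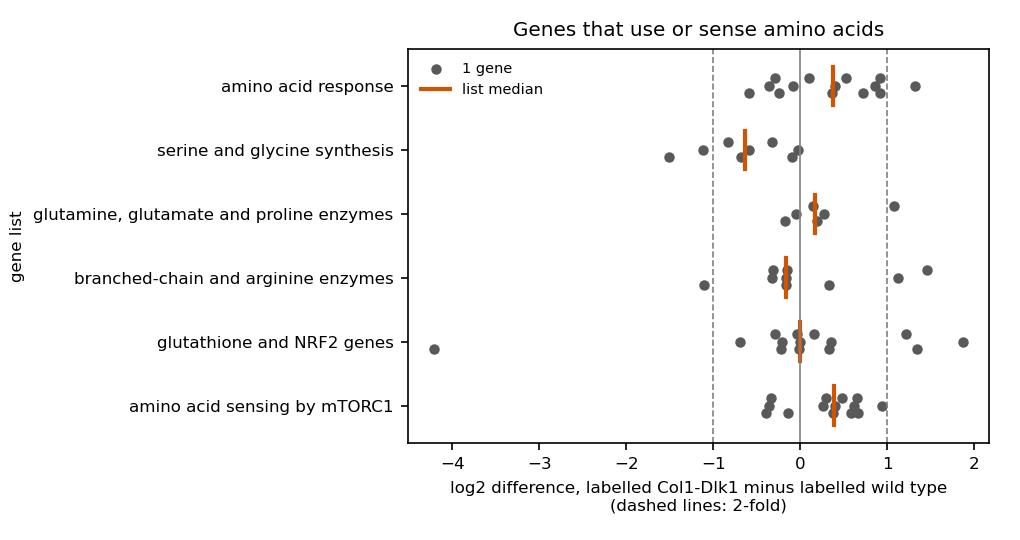
Log2 difference (Dlk1-labelled minus WT-labelled array) of each level-passing gene (points) in 6 gene lists, with list medians as bars. The lists cover amino acid response, enzymes and sensing, and glutathione and NRF2 genes. The last of these also holds genes with other roles, such as Hmox1 and Nqo1. The 8 points of the serine and glycine list lie below 0, those of Phgdh and Psph close to it, and the point at -4.20 is Gsta4.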

How the data were processed

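RNA of 2 pools of calvarial osteoblasts, 1 per genotype, was measured on Affymetrix arrays. The authors deposited probe-set intensity values on a linear scale, and the submitters' processing notes name Affymetrix Expression Console 1.1.1 for them. Its algorithm, background correction and scaling target, and a genome build, are not stated in the sources used here. Means trimmed by 2% at each end were 150.06 and 150.07, so the arrays share a scale. Of 22626 probe sets other than controls, 20380 name 1 gene in the platform annotation, 691 several and 1555 none, and 20351 matched the RefSeq gene table (GRCm38.p6), which gave current symbols. The array type in the design text differs from the annotated platform, and probe sets were joined by ID.

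The pseudocount of 10.96 is the 25th percentile and the level threshold of 42.8 the median of all values. Named genes were the transporter genes that reached the level threshold, the brightest of each family, genes with opposed probe sets, and up to 4 level-passing genes of each other list with the largest differences. The others named in the lists, and other dim transporter genes, were picked with their values known. The members, lists and rules were chosen with earlier results of these data known. Listed genes that no probe set names alone were not analysed here. The rule for higher and lower genes was tested on simulated data. The planted shifts were larger than 2-fold, in genes that reached the level threshold on the WT-labelled array, with less scatter than real probe sets. Dim genes, differences near 2-fold and the other steps were not tested in this way. Alternatives covered scaling (median centring, quantile, loess with a span of 0.3), pseudocount, level, fold and choice of probe sets. Python 3.11.15 with numpy 2.4.6, pandas 2.3.3 and statsmodels 0.14.6 was used.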

Additional observations from a re-analysis of the deposited data

How the results depend on the processing

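No paired analysis was possible because there was a single array for each genotype, which also leaves none to omit. With 1 array per genotype, no alternative measures the spread between cultures, and dim genes are limited by signal over background. None of the differences of the 23 level-passing genes that reached 2-fold changed sign under any alternative that measured it. The counts of 5 higher and 5 lower transporter genes became 2 and 2 with the pseudocount at the median of all values, 3 and 2 with the level threshold at 2 times the median, and 3 and 1 with a fold of 3. The higher count was 3 without probe sets ending in _s_at, _x_at or _a_at, which removes those of Slc7a7 and Slc22a17, and the lower count was 8 with a fold of 1.5. Slc38a2 no longer reached 2-fold under quantile or loess scaling, nor did Slc1a6, which also fell short under median centring. Slc1a5 reached it under median centring and with a pseudocount of 1. The number of genes well above the median went from 6 to 2 at 8 times the median and to 3 when both arrays had to pass. Family medians were taken over level-passing genes, which were 2 each in Slc15, Slc22 and Slco and 4 in Slc7. Both Slc22 genes and Slc15a3 reached the level threshold on the Dlk1-labelled array alone, so their sign follows from the rule. With no level filter, all 5 Slc15 and 18 Slc22 genes entered. The Slc15 median of 2.17 became 3.21 with a pseudocount of 1, 1.33 with the pseudocount at the median and 0.0062 with no level filter. Under the same settings, the Slc22 median of 1.92 became 2.56, 1.16 and -0.013. With the brightest probe set alone, the Slc22 median was 1.04 and the Slco median of -0.13 was -0.61. The Slc7 median of 0.07 became -0.70 without the suffixed probe sets and -1.14 at 2 times the level threshold. The 7 higher and 4 lower genes of the 6 other gene lists became 4 and 2 with the pseudocount at the median, 15 and 9 at 1.5-fold, and 1 and 1 at 3-fold. Differences of genes with a dim side depended most on the pseudocount: Slc15a3 ranged from 2.26 to 5.85, Slc22a23 from 1.55 to 3.73, Slc7a7 from 0.98 to 2.77 and Slc1a3 from -4.07 to -1.18.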

Other observations

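Probe sets outside the rule touched the same families. Slc6a20a and Slc6a20b, whose symbols end in a letter, read 2.06 and 8.77 on the Dlk1-labelled array and 0.52 and 2.95 on the WT-labelled one. The probe set that names both Slc22a29 and Slc22a30 read 0.66 against 5.50. None of these 3 reached the level threshold.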
